A study of Mus musculus with 12 samples.

Results

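MHC class I and proteasome genes were followed in macrophage RNA from mouse melanomas treated with a CD40 agonist, an inhibitor of the CSF1 receptor, or both. The set holds 37 of the 34989 genes to which the deposited transcript values were summed. They were chosen by name, with earlier results of these data known. They are 8 class I heavy chains, B2m, 8 genes of peptide loading, 3 immunoproteasome subunits, 2 activator subunits, the transactivator Nlrc5 and the 14 subunits of the constitutive 20S proteasome. The libraries fall into 4 groups of 3. Control mice are labelled as such, CD40 agonist mice were given the antibody FGK4.5 at 10 mg/kg every 3 days for at most 10 treatments, CSF1Ri mice ate chow with PLX6134 at 600 mg/kg, and Combination mice had both agents. All 4 groups carried the same tumor-inducing alleles, in which an inducible Cre recombinase is driven by a melanocyte promoter. Treatment began 30 days after induction, with tumors under 100 mm3 in total, and ran for 30 days or to an endpoint of 2 cm3. At least 3 tumors were pooled into each library, and nothing in the labels ties a library to single animals, so p-values measure the spread between such pools. The sources used here give neither ages nor a sorting gate for the sequenced cells.

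MHC class I molecules show peptides from inside a cell to CD8+ T cells. Proteasomes cut proteins into peptides, the TAP transporter carries them into the endoplasmic reticulum, and chaperones there load them onto a heavy chain paired with B2m. Interferon gamma is known to raise much of this pathway, in part through the transactivator Nlrc5, and to replace the 3 catalytic subunits of the constitutive 20S core with the immunoproteasome subunits. Macrophages carry all of these parts and can present peptides they have taken up.

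The promoters of the class I genes show how closely this family shares its control region, and the stretches below are the letters behind the motif counts that follow. They come from RefSeq promoter windows on build GRCm38.p6, which matched 31 of the 37 genes. Each is written 5′ to 3′ on the strand of its gene, and capitals mark a match to an interferon response motif, AANNGAAA, or to the textbook NF-kB consensus, searched on both strands.
H2-K1, chr17:34000418-34000470, minus strand: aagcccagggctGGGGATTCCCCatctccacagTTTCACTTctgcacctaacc
H2-Q6, chr17:35424665-35424717, plus strand: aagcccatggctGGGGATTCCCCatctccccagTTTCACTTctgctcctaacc
H2-Q7, chr17:35439010-35439061, plus strand: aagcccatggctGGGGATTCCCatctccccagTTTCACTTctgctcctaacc
B2m, chr2:122147538-122147582, plus strand: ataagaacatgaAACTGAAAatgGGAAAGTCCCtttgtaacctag
H2-T22, chr17:36042914-36042967, minus strand: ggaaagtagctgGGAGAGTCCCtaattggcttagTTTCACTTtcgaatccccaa
H2-M3, chr17:37270096-37270152, plus strand: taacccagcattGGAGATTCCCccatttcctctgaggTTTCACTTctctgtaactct

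In the 5 heavy chains the NF-kB match stands upstream of the interferon match, which reads on the strand opposite to the gene. In H2-T22 and H2-M3 the NF-kB match reads on that strand as well. In B2m the interferon match stands upstream of the NF-kB match. The H2-T22 stretch lies in part in an exon of Gm6034. Over the 250 bases before the start, the interferon motif was found in 10 of 20 class I, loading, immunoproteasome and activator genes with a window. These were all the heavy chains, B2m and Calr, and no immunoproteasome or activator gene was among them. It was found in 3 of 11 constitutive 20S genes and in 21.3% of 32851 windows of all genes. Members were counted per gene, with a match in any window. The NF-kB consensus was found in 9 of the 20 (H2-K1, H2-D1, H2-Q4, H2-Q6, H2-Q7, H2-T22, H2-M3, B2m and Calr), in 2 of the 11 and in 7.25% of all windows.

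The NF-kB counts depend on how the motif is written, and 3 forms were searched. A form of 10 letters that fixes the central pair of T was found in 6 of the 20, 0 of the 11 and 4.11% of all windows, and a form of 9 letters, GGNNTTNCC, in the same 6, in 3 of the 11 and in 13.5% of all windows. Neither of these marks H2-T22 or H2-M3. A further motif, TGACNNNGC, the antioxidant response element, was found in 4 of the 20, 2 of the 11 and 10.2% of windows. A match is a run of letters and not a shown binding site. The heavy chains are near copies of each other, so these matches are not independent. Of the 37 genes, 14 lie on chromosome 17, where the H2 complex sits.

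Per gene length the light chain was the most abundant member in every group. B2m reached 7360 ± 324 TPM (transcript abundance scaled to transcript length and library; SD, n = 3) in Control and 9174 ± 848 in Combination. H2-D1, one of the classical heavy chains, stood at 3060 ± 191 TPM in Control, and H2-K1, another, at 1114 ± 75.0. The activator subunit Psme2 was at 1219 ± 134 TPM in Control, and Nlrc5 was at 66.7 ± 11.4. The 37 genes together took between 1.91% and 2.10% of all TPM in Control, between 1.85% and 2.04% in CD40 agonist, between 1.85% and 2.10% in CSF1Ri and between 2.30% and 2.84% in Combination. Combination did not overlap any other group in this share.

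Every member passed the filter on low counts and was tested with edgeR among 16027 genes. Levels between libraries are given below as CPM, read counts scaled to the library total with TMM factors, and a call means an adjusted p below 0.05 over all genes tested. Library totals ran from 26316328 to 39818657 estimated counts. The 3 Combination libraries were the deepest, at 38045464, 34168389 and 39818657, followed by CD40 agonist replicate 3 at 33948213. The part of depth in the results was not tested. There were 2 libraries that stood apart from their groups in these genes: Combination replicate 2 was the highest of the 12 libraries in 32 of 37 genes, and CSF1Ri replicate 3 resembled Control where the other CSF1Ri libraries were lower. Summed macrophage markers were 14991, 35694 and 18324 CPM in the 3 Combination libraries and between 16170 and 28412 CPM in the other 9. Most of that sum is the lysozyme Lyz2, at 11407, 30884 and 14832 CPM in Combination, and the complement genes of macrophages went the other way in replicate 2, with C1qa at 84.8, 1.93 and 20.2 CPM and C1qb at 198, 8.64 and 93.4. None of the marker genes of any cell type was at 0 in all libraries. Summed dendritic cell markers were 140 CPM in Combination replicate 2 and 1524 and 1515 CPM in replicates 1 and 3. T cell markers summed to between 49.5 and 148 CPM and NK cell markers to between 314 and 1260 CPM over all libraries. Among marker genes 5 were called in Combination against Control, where 0.774% of all genes tested were called. Mcpt8, Cpa3 and Fcer1a, of basophils and mast cells, rose, and Ms4a1, of B cells, and Retnlg, of neutrophils, fell. Of the 7 neutrophil markers, however, 5 were on the higher side there (median log2 difference 0.41). Their sums overlapped, at 490, 1102 and 1239 CPM in Combination and 1290, 581 and 509 in Control. Summed mast cell, basophil and eosinophil markers were 504, 385 and 640 CPM in Combination, 150, 218 and 159 in Control, 365, 273 and 160 in CD40 agonist and 594, 681 and 481 in CSF1Ri. The list did not move as one: 4 of its 8 tested markers were on the higher side in Combination against Control (median 0.35). The eosinophil markers Il5ra and Prg2 were lower. Il5ra was at 156, 68 and 19 counts in Control and 8, 9 and 9 in Combination, and Prg2 at 15, 22 and 15 and at 0 in all 3. Summed melanocyte and melanoma markers were 101, 26.3 and 46.3 CPM in Combination and between 17.7 and 24.2 in Control. In such bulk libraries fewer cells of a type and less RNA per cell cannot be told apart, and the part of these markers in the results was not tested.

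Combination was compared with Control to ask what both agents together do to this pathway. In Combination all 37 members were on the higher side, with a median log2 difference of 0.57, against 0.002 over all genes tested. Calls were made for 4 of them, all higher: the heavy chains H2-K1 and H2-T22 and the constitutive subunits Psma1 and Psma5. Over all genes tested 0.774% were called in this comparison, and 0.462% were called higher. At an unadjusted p below 0.05 the higher members numbered 29 of 37, against 8.32% of all genes tested. The 3 Combination libraries lay above all 3 Control libraries for 31 members, as they did for 10.8% of all genes tested. Highly expressed genes as a class moved less: the top decile of genes by level, 1603 genes with 28 of the members, had a median of 0.12. Scaling by library totals in place of TMM, chosen after seeing the data, moved the median of all genes to -0.14 and that of the members to 0.42, with Canx at -0.02 and the other 36 above 0.

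**Figure D1:**
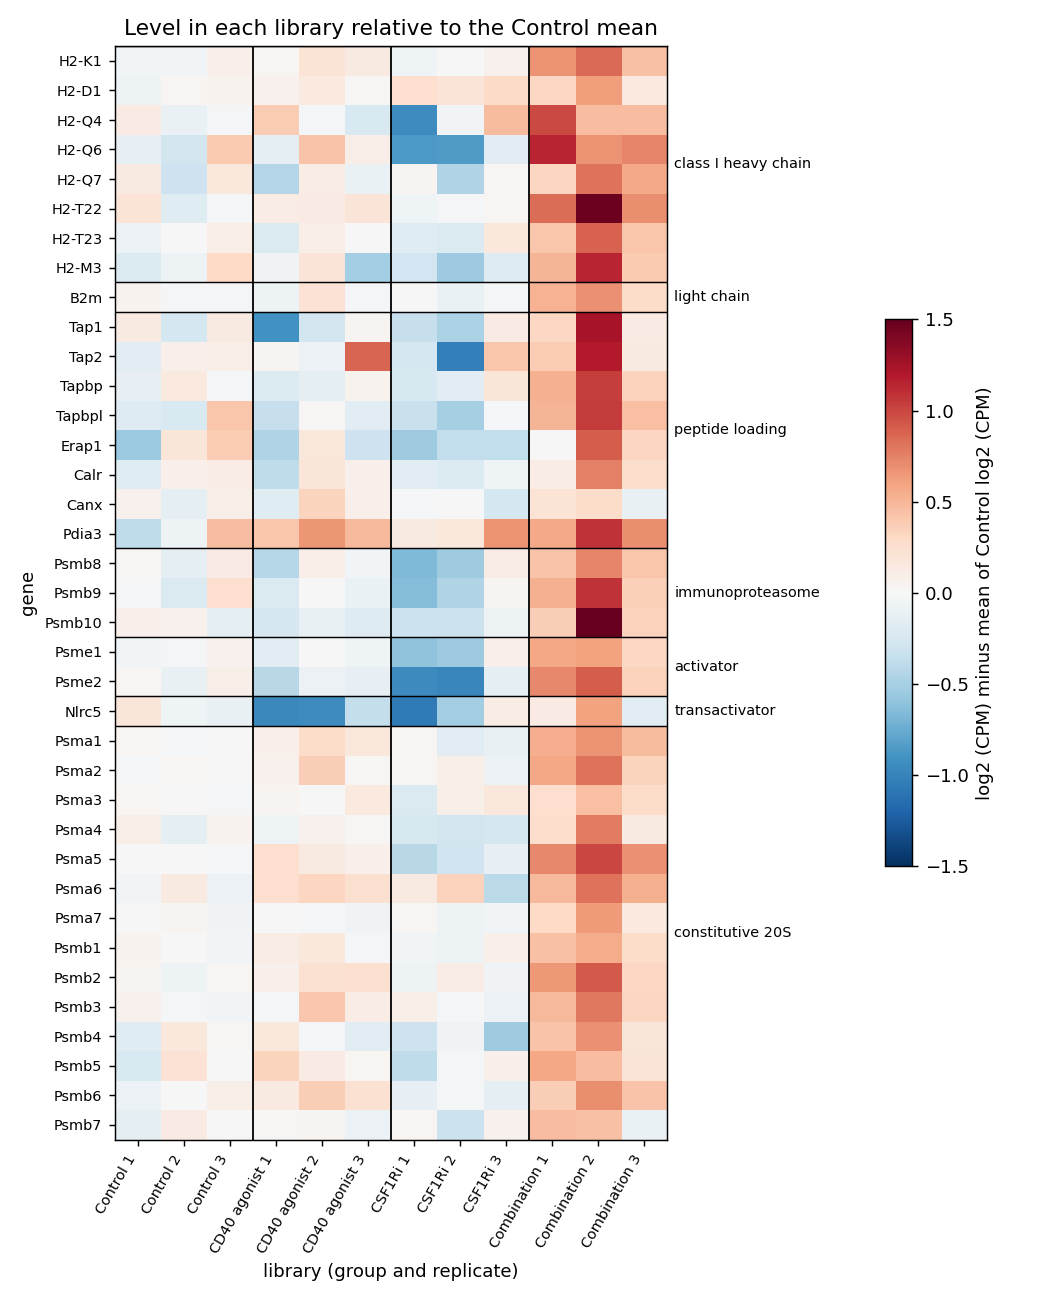
Level of each of the 37 genes (rows, by role) in each of the 12 libraries (columns), as log2 CPM minus the mean of the Control libraries; red is higher and blue lower. The 3 Combination columns are red for nearly all genes, with replicate 2 the deepest, and the activator genes are bluest in CSF1Ri replicates 1 and 2.

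Among the heavy chains, H2-K1 was at 1124, 1125 and 1214 CPM in Control, 1182, 1334 and 1263 in CD40 agonist, 1107, 1158 and 1206 in CSF1Ri and 1837, 2086 and 1560 in Combination. Every Combination library lay above the other 9. H2-K1 rose in Combination by a log2 fold change of 0.66 ± 0.11 (SE; edgeR, adjusted p = 0.0258) against Control. H2-T22, a nonclassical heavy chain of the T region, was at 143, 109 and 121 CPM in Control, 133, 135 and 141 in CD40 agonist, 118, 122 and 126 in CSF1Ri and 220, 342 and 200 in Combination. It rose by 1.03 ± 0.19 (adjusted p = 0.0367 by edgeR), again with no overlap with any other group. Its exons share 1003 bases with an antisense gene, A930015D03Rik, and in these unstranded libraries reads of the pair cannot be told apart.

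H2-Q6, a heavy chain of the Q region, was at 107, 96.0 and 153 CPM in Control, 106, 156 and 125 in CD40 agonist, 64.1, 64.6 and 103 in CSF1Ri and 257, 186 and 193 in Combination. Combination again lay above the other 9 libraries, while Control and CD40 agonist overlapped. Its difference from Control was 0.84 ± 0.25 and was not called (edgeR, adjusted p = 0.154). The other 5 heavy chains, H2-D1, H2-Q4, H2-Q7, H2-T23 and H2-M3, differed by log2 values between 0.37 for H2-D1 and 0.70 for H2-M3, with no call. All 8 heavy chains lay above Control without overlap. H2-D1 differed least, at 5035 ± 870 CPM in Combination and 3886 ± 194 in Control (SD, n = 3). The heavy chains are near copies whose reads can be shared out differently between them, and the sources used here do not give the H2 haplotype, so values of single heavy chains are uncertain. H2-Q4 is the least certain, since 97.0% of its TPM sits on a transcript with a retained intron.

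B2m, the light chain of every class I molecule, was at 4248, 4014 and 4074 CPM in Control, 3907, 4761 and 4064 in CD40 agonist, 4094, 3839 and 4077 in CSF1Ri and 5909, 6609 and 4958 in Combination. The lowest Combination library was above the highest of the other 9. The difference from Control was 0.50 ± 0.11 and was not called (edgeR, adjusted p = 0.0701).

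**Figure D2:**
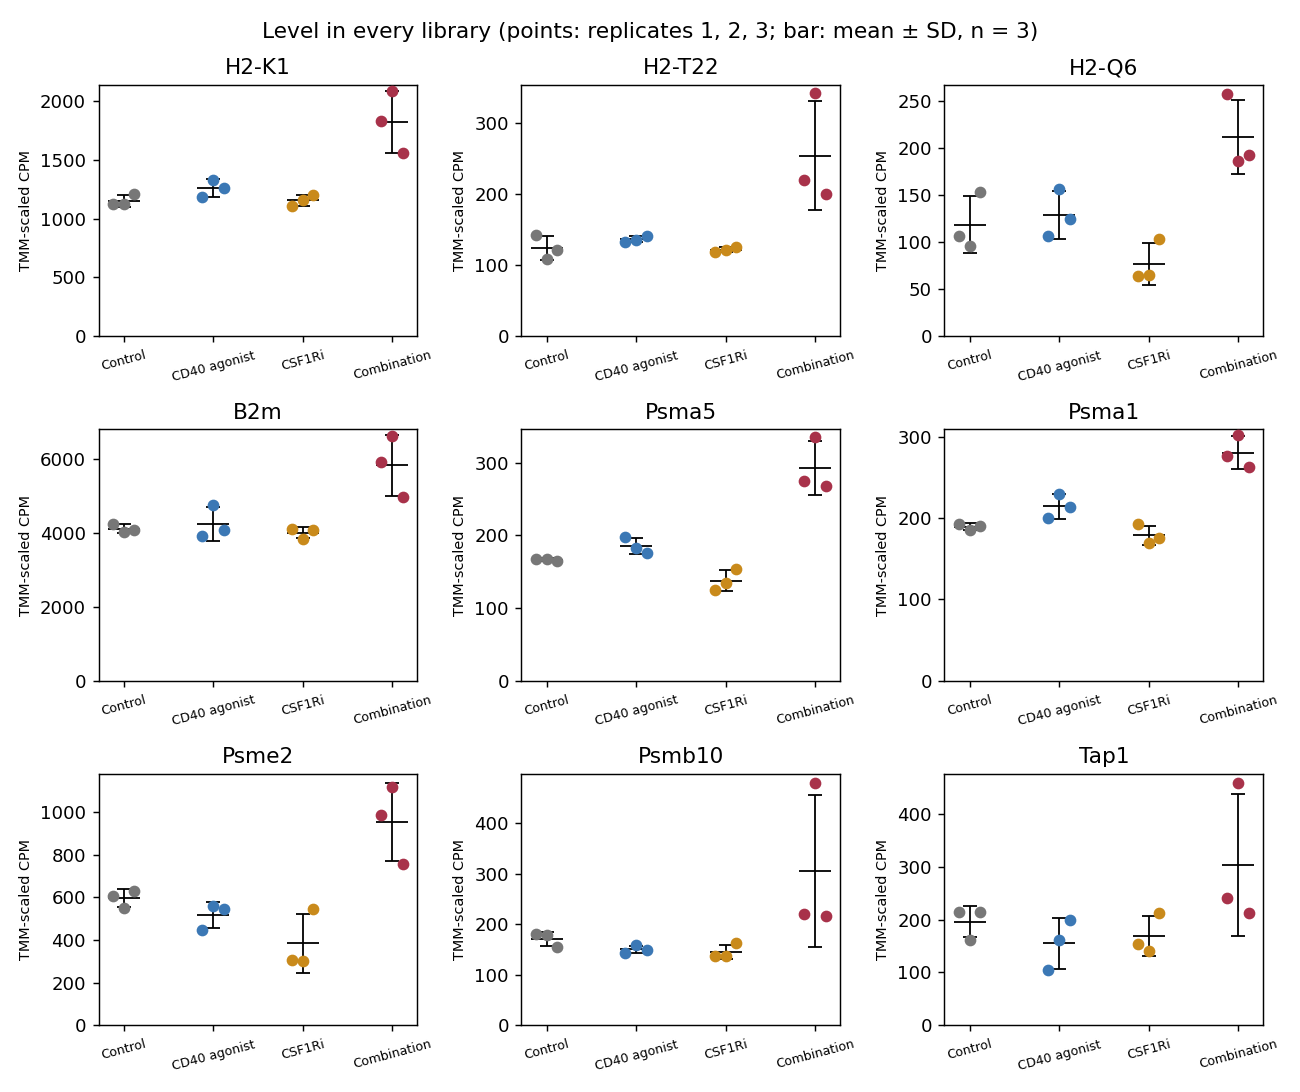
TMM-scaled CPM of 9 genes in every library; points are replicates 1, 2 and 3 of each group, bars the mean ± SD (n = 3). For H2-K1, H2-T22, H2-Q6, B2m, Psma5, Psma1, Psme2 and Psmb10 the 3 Combination points lie above the other 9, whereas for Tap1 they overlap Control, and replicate 2 stands far above the other Combination points for Psmb10 and Tap1.

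No gene of peptide loading was called with edgeR in any comparison. Tap1, a chain of the peptide transporter, was at 214, 162 and 214 CPM in Control, 104, 161 and 200 in CD40 agonist, 154, 140 and 212 in CSF1Ri and 242, 459 and 212 in Combination. Combination replicate 2 was more than any other library, and replicate 3 was level with Control. Against Control the 8 loading genes ranged from 0.13 for Canx, a lectin chaperone, to 0.76 for Pdia3, an oxidoreductase of the loading complex, and 3 of 8 had an unadjusted p below 0.05. Pdia3 was at 178, 221 and 320 CPM in Control and 346, 494 and 378 in Combination (0.76 ± 0.23, adjusted p = 0.16 by edgeR). Its CD40 agonist libraries, at 311, 369 and 325 CPM, overlapped both. Tapbp and Tapbpl, tapasin and its relative, which edit the bound peptides, differed by 0.67 and 0.66 and did not overlap Control. Erap1, which trims peptides, differed by 0.41 and overlapped.

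The immunoproteasome subunits and the activator subunits all lay above Control in Combination without overlap, and none was called there. Psmb8 was at 501, 452 and 541 CPM in Control, 369, 531 and 483 in CD40 agonist, 313, 344 and 535 in CSF1Ri and 669, 826 and 664 in Combination. Psmb9 was at 131, 115 and 159 CPM in Control, 115, 134 and 125 in CD40 agonist, 85.1, 97.8 and 138 in CSF1Ri and 194, 284 and 172 in Combination. Psmb10 was at 180, 178 and 155 CPM in Control, 143, 158 and 149 in CD40 agonist, 136, 137 and 162 in CSF1Ri and 220, 480 and 216 in Combination. In all 3 subunits Combination was above the other 9 libraries, and CSF1Ri replicates 1 and 2 were below every Control library. Psmb10 differed from Control by 0.84 ± 0.26 (edgeR, adjusted p = 0.175), a value that rests in part on replicate 2. Psmb9 shares 212 exon bases with Tap1, whose start lies within it on the other strand. Larger overlaps with a gene on the other strand were found for Psmb8 (498 bases, Gm20496), Psmb7 (405, Nek6) and Tapbp (904, Gm19412), among others. Reads of such pairs cannot be told apart in these unstranded libraries.

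Psme1 and Psme2 form the cap that opens the 20S core and is induced by interferon. Psme1 was at 319, 324 and 343 CPM in Control, 295, 326 and 313 in CD40 agonist, 217, 225 and 345 in CSF1Ri and 493, 501 and 407 in Combination. Psme2 was at 605, 551 and 631 CPM in Control, 447, 560 and 545 in CD40 agonist, 306, 303 and 543 in CSF1Ri and 983, 1116 and 757 in Combination. Both were highest in Combination with no overlap, and lowest in CSF1Ri replicates 1 and 2. Nlrc5 had another order, with 135, 114 and 110 CPM in Control, 61.2, 61.9 and 93.0 in CD40 agonist, 57.1, 82.7 and 129 in CSF1Ri and 130, 181 and 107 in Combination. Combination overlapped Control for Nlrc5 (0.22 ± 0.30, edgeR, adjusted p = 0.793). Of its TPM, 67.7% sits on a transcript with a retained intron, and a median of 16.2% on coding transcripts.

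The constitutive 20S core was higher in Combination as well. The median log2 difference from Control was 0.47 over its 14 subunits and 0.68 over the immunoproteasome and activator subunits together, and these medians were 0.39 and 0.44 without Combination replicate 2. With all libraries 13 of the 14 had an unadjusted p below 0.05. Psma5, a subunit of the outer ring, was at 168, 168 and 164 CPM in Control, 198, 183 and 176 in CD40 agonist, 125, 135 and 153 in CSF1Ri and 275, 335 and 268 in Combination. The 4 groups did not overlap each other for Psma5. It rose in Combination by 0.81 ± 0.12 (edgeR, adjusted p = 0.0196). Psma1, another outer-ring subunit, was at 193, 185 and 190 CPM in Control, 200, 230 and 213 in CD40 agonist, 192, 169 and 175 in CSF1Ri and 276, 302 and 263 in Combination. It rose by 0.57 ± 0.11 (adjusted p = 0.0378 by edgeR) and stood above the other 9 libraries. The other 12 subunits differed by between 0.29 for Psmb7 and 0.64 for Psmb2, with no call.

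The calls against Control depended on single libraries. That of Psma5 ended (edgeR, adjusted p up to 0.102) without any one Control library, and that of H2-K1 (up to 0.144) without any one of Control replicates 1, 2 and 3, CD40 agonist replicate 2, CSF1Ri replicate 2 and Combination replicate 1. That of H2-T22 ended (up to 0.147) without any library but CSF1Ri replicate 3 and Combination replicates 2 and 3, and that of Psma1 (up to 0.153) without any library but CSF1Ri replicate 3. Over all genes tested, 0%, 0.00594% and 0% were called in this comparison without Control replicates 1, 2 and 3 in turn. Without Combination replicate 2, 36 of 37 members stayed on the higher side, with a median of 0.42, and H2-K1, H2-T22 and Psma5 were called, where 0.85% of 16831 genes were. Nlrc5 was then at -0.01. Psmb10 was at 0.35 and Tap1 at 0.21, where all libraries gave 0.84 and 0.63. DESeq2 called 16 members in this comparison, all higher, and 5.82% of all genes tested.

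**Figure D3:**
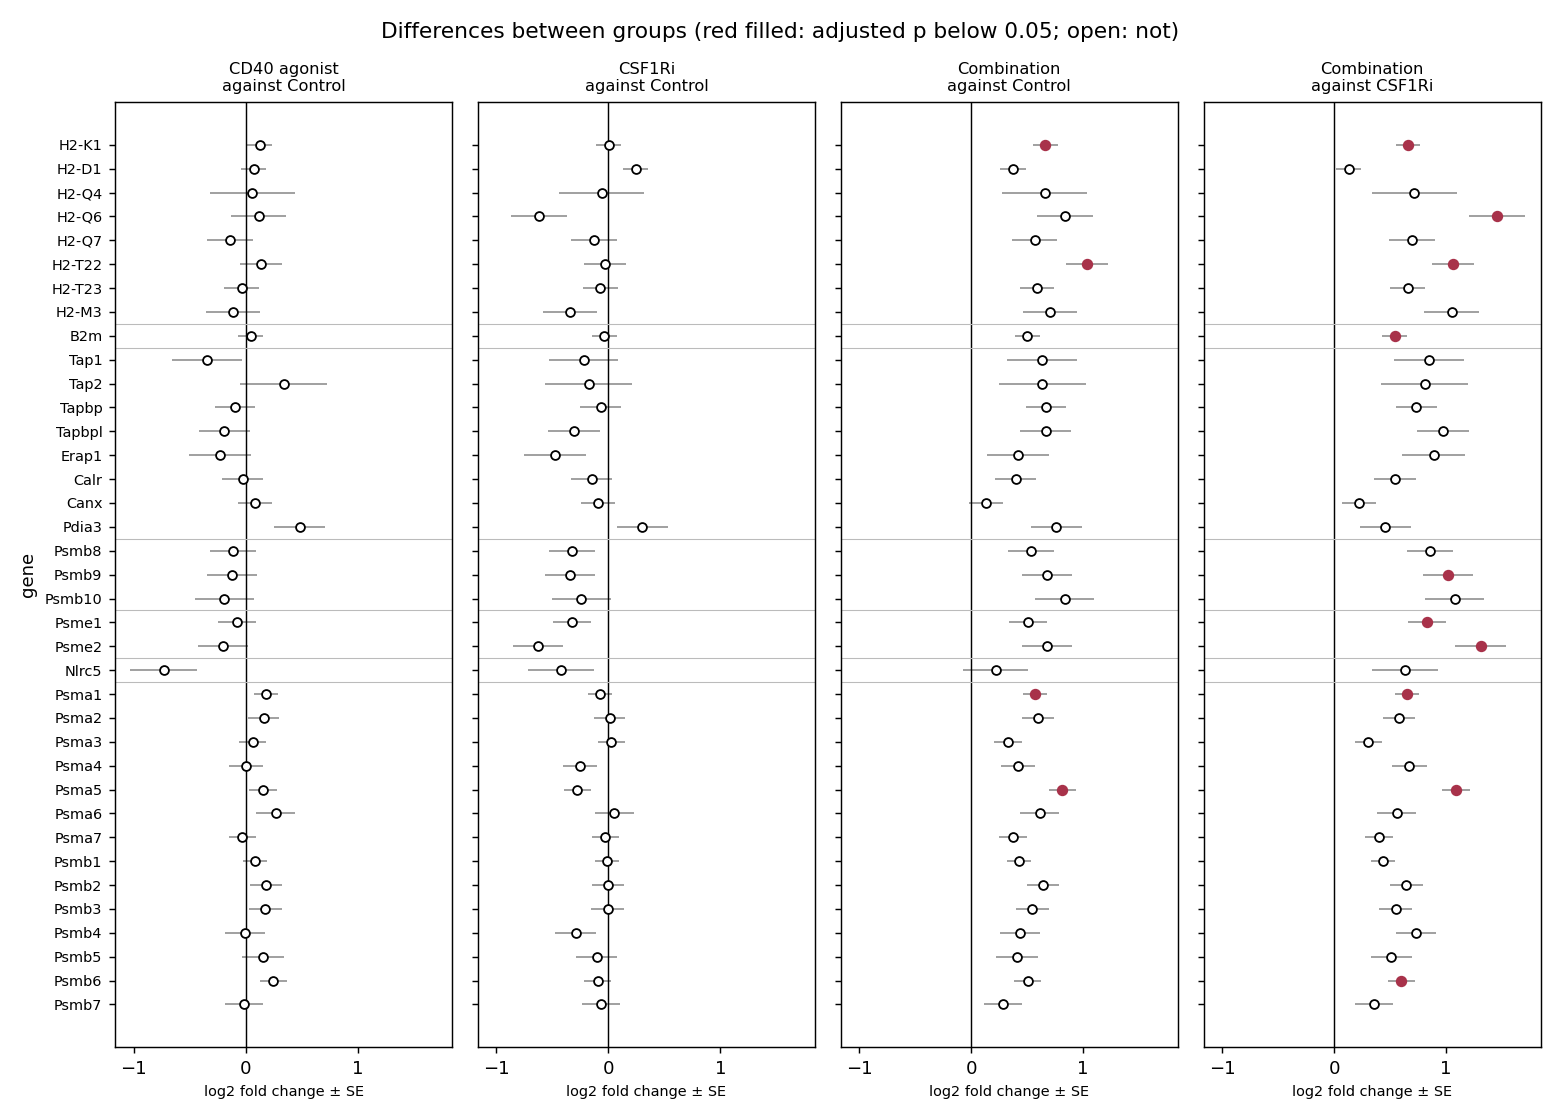
Log2 fold change ± SE of each member (rows, by role) in 4 comparisons; red filled points have an adjusted p below 0.05 and open points do not. All points lie right of 0 in both Combination panels, with 4 and 10 filled, and lie around 0 with none filled in the CD40 agonist and CSF1Ri panels.

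Each agent alone gave no call. CD40 agonist against Control had 0 of 37 members called with edgeR, where 0% of all genes tested were called, and 0 with DESeq2, where 1.21% were. The median was 0.05, with 20 members on the higher side (-0.01 and 18 when scaled by library totals), and 1 member at an unadjusted p below 0.05, Nlrc5, against 3.29% of all genes tested on the lower side. Nlrc5 differed by -0.73 ± 0.30 (edgeR, adjusted p = 0.614), and its 3 CD40 agonist libraries lay below all Control libraries, as for 8.74% of all genes tested. The CD40 agonist libraries lay above all Control libraries for 5 members (Psma1, Psma5, Psma6, Psmb2 and Psmb6), against 8.34% of all genes tested. The other large differences were 0.48 ± 0.23 for Pdia3, -0.35 ± 0.31 for Tap1, 0.34 ± 0.39 for Tap2 and 0.27 ± 0.17 for Psma6. The Tap2 value was -0.02 without CD40 agonist replicate 3, and 77.0% of Tap2 TPM sits on a transcript with a retained intron. The immunoproteasome and activator subunits had 0 of 5 members on the higher side (median -0.12), and the constitutive 20S subunits had 11 of 14 (median 0.16).

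CSF1Ri against Control also had 0 members called with edgeR, where 0.0125% of all genes tested were called, and 0 with DESeq2, where 2.55% were. Only 6 of 37 members were on the higher side, with a median of -0.10, and the immunoproteasome and activator subunits had a median of -0.33. At an unadjusted p below 0.05 there were 3 members, all lower (Psme2, H2-Q6 and Psma5), against 4.78% of all genes tested. Psme2 differed by -0.63 ± 0.22 (edgeR, adjusted p = 0.394) and H2-Q6 by -0.62 ± 0.25 (adjusted p = 0.472). Erap1 stood at -0.47 ± 0.28, Nlrc5 at -0.42 ± 0.29 and H2-M3 at -0.35 ± 0.24. H2-D1 was the one member whose CSF1Ri libraries all lay above Control, at 4620, 4445 and 4730 CPM against 3670, 3947 and 4042 (7.23% of all genes tested). All 3 lay below Control for Psma4, Psma5 and Psme2 (8.55% of all genes tested). These results depend on CSF1Ri replicate 3. Without it the median was -0.22 over all members and -0.59 over the immunoproteasome and activator subunits, and Psme2 was called lower (-0.99, edgeR, adjusted p = 0.0359), where the calls over all genes rose from 2 to 124 (0.739% of 16775 tested). Without it and Combination replicate 2 together Psme1 was called as well (-0.57, edgeR, adjusted p = 0.0335), where 2.03% of 16635 genes were. The summed dendritic cell markers of CSF1Ri replicate 3 were 1248 CPM, against 483 and 595 in the other CSF1Ri libraries, and its summed neutrophil markers 671 CPM against 2982 and 2174. The part of these markers was not tested.

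**Figure D4:**
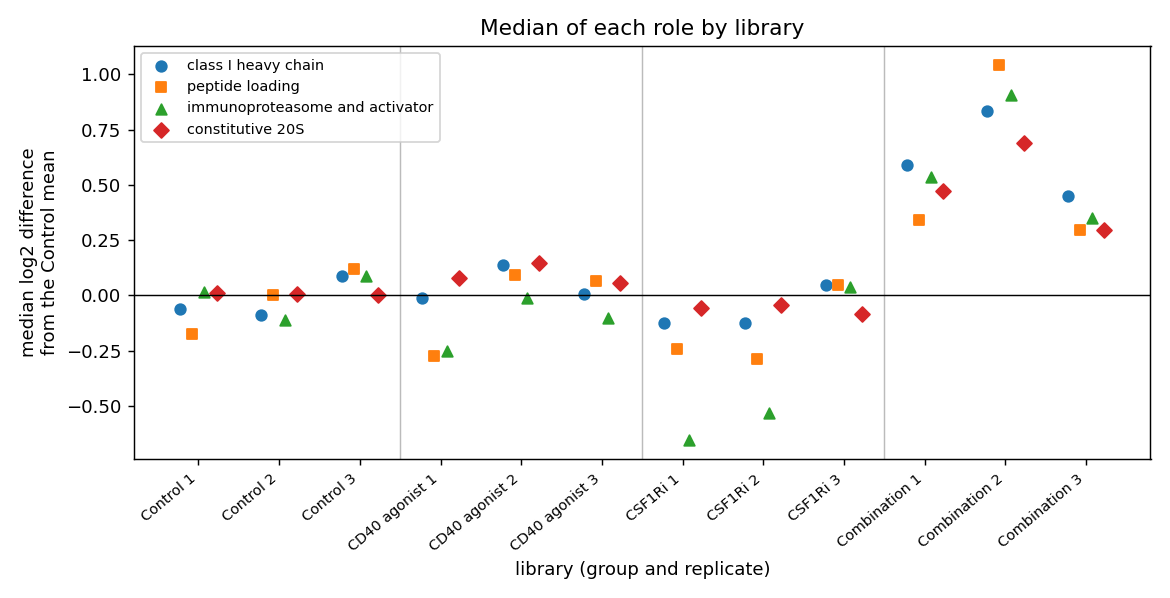
Median log2 difference from the Control mean in each library, over heavy chains, peptide loading genes, immunoproteasome and activator genes, and constitutive 20S genes. B2m and Nlrc5 are not shown. Constitutive 20S genes stay near 0 outside Combination. Immunoproteasome and activator genes sit at -0.66 and -0.53 in CSF1Ri replicates 1 and 2 and at 0.04 in replicate 3. All sets shown are positive in the 3 Combination libraries, whereas Nlrc5 was at -0.16 in Combination replicate 3.

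Combination was then set against each single agent. These comparisons share the Combination libraries, so their values are given side by side and not as separate evidence. Against CSF1Ri all 37 members were on the higher side (median 0.66, against 0.02 over all genes tested) and 10 were called, all higher, where 1.94% of all genes tested were called and 1.24% were called higher. The called members were H2-K1, H2-Q6, H2-T22, B2m, Psmb9, Psme1, Psme2, Psma1, Psma5 and Psmb6. Psma5 rose by 1.09 ± 0.12 (edgeR, adjusted p = 0.0066), Psme2 by 1.31 ± 0.23 (adjusted p = 0.022) and H2-Q6 by 1.46 ± 0.25 (adjusted p = 0.0219). H2-T22 rose by 1.06 ± 0.19 (edgeR, adjusted p = 0.0238) and Psmb9 by 1.02 ± 0.22 (adjusted p = 0.047). Psme1 rose by 0.83 ± 0.17, H2-K1 by 0.66 ± 0.11, Psma1 by 0.65 ± 0.11, Psmb6 by 0.60 ± 0.12 and B2m by 0.54 ± 0.11, all with edgeR adjusted p between 0.0181 and 0.038. Psmb10, at 1.08 ± 0.26, was not called (edgeR, adjusted p = 0.0648), but was at 0.59 and called without Combination replicate 2 (edgeR, adjusted p = 0.0343). At an unadjusted p below 0.05 the higher members numbered 30, against 10.6% of all genes tested. The Combination libraries lay above all 3 CSF1Ri libraries for 30 members, as for 10.8% of all genes tested.

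In this comparison the call of Psma5 held without any one library. The calls of H2-K1, H2-Q6 and Psme2 ended without CSF1Ri replicate 1, CSF1Ri replicate 2 or Combination replicate 1 (edgeR, adjusted p up to 0.0966), and those of H2-T22 and Psma1 without CSF1Ri replicate 1 or 2 (up to 0.0925). The calls of Psmb9 and Psme1 ended without any library but CSF1Ri replicate 3, those of B2m without any but CD40 agonist replicates 1 and 2 and Combination replicate 3, and those of Psmb6 without any but CD40 agonist replicate 1 and Combination replicate 2 (up to 0.153 for these 4). Over all genes tested, edgeR called 0.255% and 0.13% in this comparison without CSF1Ri replicates 1 and 2 in turn. DESeq2 called 26 members and 9.27% of all genes tested.

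Against CD40 agonist all 37 members were again on the higher side (median 0.46, against -0.001 over all genes tested), and 0 were called with edgeR, where 0% of all genes tested were. At an unadjusted p below 0.05 the higher members numbered 28, against 4.68% of all genes tested, and DESeq2 called 10 members, where 1.72% of all genes tested were called. Psmb10 differed by 1.02 ± 0.26 (edgeR, adjusted p = 0.285), Tap1 by 0.97 ± 0.31, Nlrc5 by 0.95 ± 0.30, H2-T22 by 0.90 ± 0.19 and Psme2 by 0.88 ± 0.22. Without Combination replicate 2 these were 0.54, 0.55, 0.72, 0.62 and 0.75 in the same order, 35 members were on the higher side and the median was 0.35. Libraries did not overlap for 28 members, as for 6.6% of all genes tested. Over all 9 other libraries together, the 3 Combination libraries were the highest for 24 members and for 2.3% of all genes tested.

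Whether the log2 difference of Combination from Control exceeded the sum of the log2 differences of both single agents was tested as an interaction. With edgeR 0 members were called, as were 0% of all genes tested. On the positive side, 24 members had an unadjusted p below 0.05, against 4.64% of all genes tested. The median was 0.66, and 36 members were positive. The largest values were 1.51 ± 0.32 for Psme2 (edgeR, adjusted p = 0.255), 1.37 ± 0.42 for Nlrc5, 1.34 ± 0.35 for H2-Q6, 1.27 ± 0.37 for Psmb10 and 1.20 ± 0.44 for Tap1. DESeq2 called 4 members, H2-Q6, Psme1, Psme2 and Psma5, and 1.11% of all genes tested. Without CSF1Ri replicate 3, edgeR called Psme1 (1.17, adjusted p = 0.0415) and Psme2 (1.85, adjusted p = 0.0338), where 0.0894% of 16775 genes were called. Without Combination replicate 2 the values of Psmb10 and Tap1 were 0.78 and 0.77. Across the 4 groups as a whole, edgeR called H2-K1, H2-T22, Psma1 and Psma5 as different, where 1.2% of all genes tested were called.

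Immunoproteasome and constitutive catalytic subunits occupy the same places in the core, so each pair was compared as a ratio of TPM, which is per gene length. Psmb8 exceeded Psmb5 in every library, with ratios of 8.62, 5.62 and 7.92 in Control, 4.32, 7.05 and 6.81 in CD40 agonist, 5.90, 5.07 and 7.42 in CSF1Ri and 6.64, 8.96 and 8.55 in Combination. Psmb9 was below Psmb6 in every library, with ratios of 0.574, 0.502 and 0.596 in Control, 0.466, 0.428 and 0.458 in CD40 agonist, 0.380, 0.391 and 0.649 in CSF1Ri and 0.661, 0.718 and 0.548 in Combination. Psmb10 to Psmb7 gave 2.89, 2.47 and 2.20 in Control, 2.00, 2.10 and 2.42 in CD40 agonist, 2.04, 2.74 and 2.22 in CSF1Ri and 2.30, 4.82 and 3.39 in Combination. Of these, only Psmb9 to Psmb6 in CD40 agonist stood apart from Control, on the lower side. A median of 50.7% of Psmb10 TPM sits on coding transcripts, against 99.3% of Psmb7 TPM. The level of that ratio therefore includes noncoding transcripts. The partners themselves were modest in CPM. Psmb5 was at 38.4, 52.4 and 45.3 in Control, 56.5, 49.2 and 46.0 in CD40 agonist, 34.6, 44.5 and 47.4 in CSF1Ri and 67.5, 61.8 and 51.3 in Combination. Psmb6 was at 141, 150 and 159 CPM in Control, 165, 193 and 176 in CD40 agonist, 138, 147 and 135 in CSF1Ri and 193, 243 and 201 in Combination. Psmb7 was at 85.5, 102 and 94.0 CPM in Control, 95.1, 96.0 and 88.1 in CD40 agonist, 95.2, 74.9 and 98.2 in CSF1Ri and 129, 127 and 87.3 in Combination. Psmb6 alone of these was above the other 9 libraries in all 3 Combination libraries.

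As the mean of the 3 log2 ratios, the libraries gave 1.28, 0.93 and 1.12 in Control, 0.67, 0.89 and 0.97 in CD40 agonist, 0.73, 0.81 and 1.14 in CSF1Ri and 1.11, 1.65 and 1.33 in Combination. Every treated group overlapped Control. The mean differed from Control by 0.25 in Combination, -0.27 in CD40 agonist and -0.22 in CSF1Ri, and without Combination replicate 2 the Combination value was 0.11. No test was made of this ratio, since it is a score over chosen members.

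**Figure D5:**
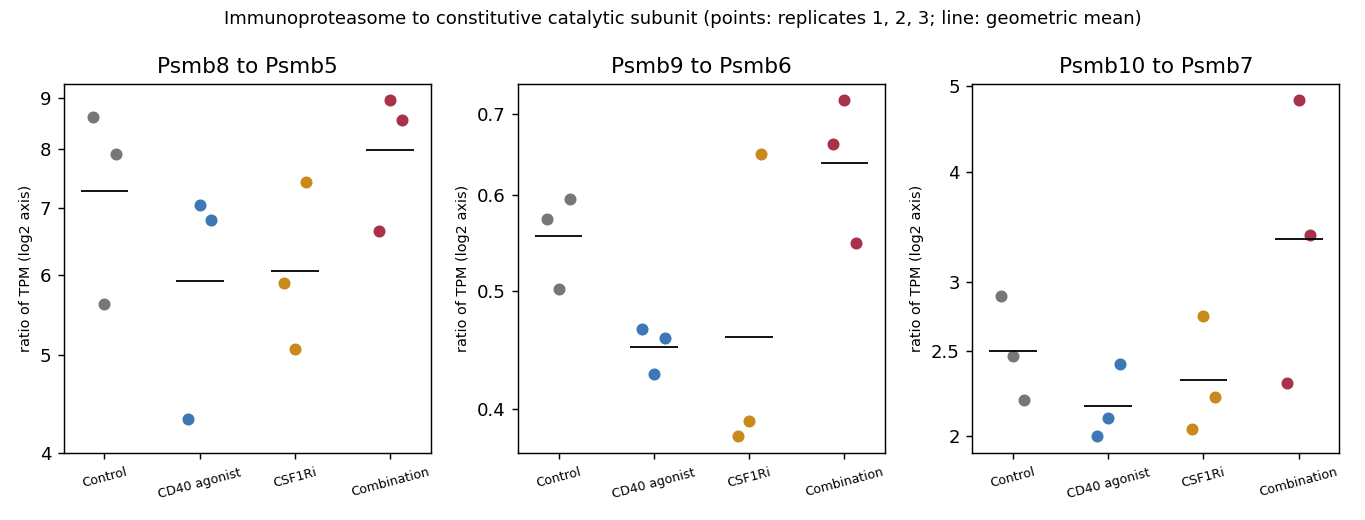
Ratio of TPM of each immunoproteasome subunit to its constitutive partner in every library, on log2 axes; points are replicates 1, 2 and 3 and lines the geometric mean of 3. Combination overlaps Control in all 3 panels, and only the CD40 agonist points of Psmb9 to Psmb6 lie wholly outside Control.

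The genes around the core were followed from lists made for this comparison. Of 29 genes of the 19S cap, other caps and proteasome assembly, 26 were on the higher side in Combination against Control (median 0.45), and 1 was called, Psmd12, a lid subunit, which rose by 0.72 ± 0.13 (edgeR, adjusted p = 0.0372). Over all genes tested 50.2% were on the higher side in that comparison and 0.774% were called. Against CSF1Ri 27 were on the higher side and 8 were called, all higher: Psmc3, Psmc5, Psmd1, Psmd4, Psmd7, Psmd8, Psmd14 and the assembly chaperone Pomp. Over all genes tested 51.2% were on the higher side there, 1.94% were called and 1.24% were called higher. Psmd14, the deubiquitinase of the lid, rose by 0.84 ± 0.15 (adjusted p = 0.0218 by edgeR). The largest differences from Control were 0.74 ± 0.43 for Psmg2, an assembly chaperone, 0.72 for Psmd12 and 0.71 ± 0.15 for Psmd14. Summed over the list, the levels were between 3018 and 3705 CPM in Combination and between 2260 and 2832 CPM in the other 9 libraries, with no overlap. In CD40 agonist against Control and CSF1Ri against Control 0 of the 29 were called.

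Of 17 genes of interferon gamma signalling and its targets, 13 were on the higher side in Combination against Control (median 0.38), as were 50.2% of all genes tested. The ligand Ifng was at 4.47, 2.85 and 3.05 CPM in Control, 17.6, 19.5 and 11.3 in CD40 agonist, 3.09, 3.15 and 7.37 in CSF1Ri and 14.6, 16.0 and 12.4 in Combination. Both groups given the antibody were thus above the groups without it, and Ifng in Combination differed from Control by 2.05 ± 0.42 (edgeR, adjusted p = 0.0538). The one call was the receptor chain Ifngr1, which fell by 0.61 on the log2 scale (SE 0.09, edgeR, adjusted p = 0.0186), from 1104, 1198 and 1040 CPM in Control to 733, 749 and 712 in Combination. The GTPase Iigp1 was at 112, 1667 and 198 CPM in Combination and between 2.45 and 67.1 in the other libraries. The GTPase Gbp2 was at 394, 1689 and 528 CPM in Combination and between 125 and 282 in the other libraries. For both, replicate 2 was far above the other Combination libraries. The largest differences from Control were 5.47 ± 1.24 for Iigp1, 3.25 ± 1.02 for the chemokine Cxcl9 and 2.05 for Ifng. Against CSF1Ri 11 of the 17 were on the higher side. Of the 17, 5 were called higher (Irf8, Ciita, Cxcl10, Gbp2 and Iigp1) and Ifngr1 was called lower, where 1.94% of all genes tested were called. Summed, the list was at 3458, 9268 and 4009 CPM in Combination.

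The partners with which Nlrc5 acts at class I promoters, 8 genes of the RFX, NF-Y and CREB families, had 3 on the higher side in Combination against Control (median -0.05) and no call in any comparison. Rfx5 differed most there, at 0.67 ± 0.31, followed by Nfya at -0.64 ± 0.24 and Nfyc at 0.42 ± 0.27. Of 11 other class I and class I-like genes 9 were tested, 6 were on the higher side (median 0.27) and none was called, and Hfe, an iron regulator with a class I fold, stood at -0.84 ± 0.37. H2-T10, a near relative of H2-T22, was at 0.66 ± 0.43 and H2-M2 at 0.51 ± 0.64. Of 10 other folding genes of the endoplasmic reticulum 9 were on the higher side (median 0.41) with no call, led by the chaperone Hspa5 (0.79 ± 0.18), Prkcsh (0.66 ± 0.25) and P4hb (0.55 ± 0.18). Cell cycle genes, 8 in number, were all on the higher side in Combination against Control with a median of 1.74 and no call, and summed to 283, 119 and 200 CPM in Combination and 68.1, 84.7 and 55.4 in Control. In CD40 agonist, where the members had a median of 0.05 against Control, all 8 were on the higher side as well, with a median of 1.04 and sums of 109, 114 and 182 CPM. Within Combination their sum was lowest in replicate 2, the library where most class I and proteasome genes were highest. The part of the cell cycle genes in these results was not tested.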

How the data were processed

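RNA from 12 libraries was sequenced as 75-base paired reads, 6 libraries per lane, from 50 ng of RNA without strand information, per the labels' protocols. STAR, HTSeq and DESeq2 on build mm10 are named in the submitters' processing notes, whereas the authors' deposited files hold estimated counts and TPM per transcript, with effective lengths, per the file headers. That is the layout of a transcript quantifier, and the sources used here do not name it. The deposited TPM values sum to 1000000 in each library. Here transcripts were summed to genes with GENCODE M21 names, counts were rounded, and edgeR 4.0.16 (quasi-likelihood, robust, TMM, filterByExpr) was fitted to all 12 libraries in one model with 4 groups, with Benjamini-Hochberg adjustment over 16027 genes. DESeq2 1.42.0 was an alternative. The fit was tested on simulated counts. The SE is the log2 fold change over the square root of F.

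The members and lists were chosen with earlier results of these data known, and the promoter motifs after the sequences were looked at. The NF-kB motif was first searched in 2 ad hoc forms and then, after their counts were seen, as the textbook consensus; the counts of all 3 forms are given. Values in every library are given for H2-K1, B2m, Tap1, Nlrc5, the catalytic pairs and members called in any comparison. Statistics are given for called members and for the 5 largest differences in each comparison, and in the other lists for called genes and the 3 largest in Combination against Control. Genes given outside that rule were chosen after their values were seen. The alleles of the mice are not named here, and the values of 1 listed gene and 1 searched motif are not reported here. Protein sequences were not used here.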

Additional observations from a re-analysis of the deposited data

How the results depend on the processing

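The number of members called depended on the tool and on single libraries. DESeq2 called 16 members in Combination against Control (5.82% of all genes tested), 10 in Combination against CD40 agonist (1.72%), 26 in Combination against CSF1Ri (9.27%), 4 in the interaction (1.11%) and 25 in the test for any difference among the 4 groups (10.6%). The bias-adjusted quasi-likelihood fit called 18 in Combination against CSF1Ri (3.27% of all genes) and 7 in the test for any difference (2.56%). With the replicate number as a block (replicate block) the counts were 1 in Combination against Control (0.368% of all genes), 5 in Combination against CSF1Ri (0.755%) and 1 in the test for any difference (0.306%). Same-numbered libraries did not deviate together (correlations of -0.061 to 0.060 over 18 pairs), so the block pairs nothing and the cause was not tested. Leaving out 1 library at a time gave between 0 and 5 members in Combination against Control (0% to 0.918% of all genes tested). It gave between 1 and 11 in Combination against CSF1Ri (0.13% to 2.55%) and between 0 and 1 in CSF1Ri against Control (0% to 0.739%). The interaction had between 0 and 2 (0% to 0.0894%), and the test for any difference between 0 and 8 (0.0771% to 1.73%). Without CSF1Ri replicate 3 and Combination replicate 2 together the members called numbered 2 in CSF1Ri against Control (2.03% of all genes), 3 in the interaction (0.397%) and 9 in the test for any difference (3.88%). Signs were followed for 68 log2 fold changes, those of all members in Combination against Control and of called members and the largest differences elsewhere, and 4 of 1360 values under alternatives changed sign. Tap2 in CD40 agonist against Control was at -0.02 without CD40 agonist replicate 3 and up to 0.52 without the other libraries in turn. In Combination against Control, Canx was at -0.02 with library totals only, and Nlrc5 was at -0.01 without Combination replicate 2, at up to 0.38 without the other libraries in turn, and at -0.02 without CSF1Ri replicate 3 and Combination replicate 2 together. Over all 37 members, the sign changed in 6 of 740 values in Combination against CD40 agonist, 1 in Combination against CSF1Ri, 11 in the interaction, 29 in CD40 agonist against Control and 42 in CSF1Ri against Control. The difference of the mean log2 catalytic ratio from Control moved by less than the spread between replicates under each alternative run. The level of the ratio itself was not followed in this way. With 3 libraries a group and strict adjustment over 16027 genes, small differences were not detectable, and adjusted p-values near 0.05 decide several calls.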
